A study of Homo sapiens with 6 samples.

Results

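The genes described here are the ID genes ID1, ID2, ID3 and ID4, which encode inhibitors of basic helix-loop-helix (bHLH) transcription factors, together with SMAD6 and SMAD7, which encode the inhibitory SMADs of the bone morphogenetic protein (BMP) and TGF-β pathways. They were taken by gene symbol from the deposited table, and 4 of the 6 symbols are among its 1099 genes (ID1, ID2, ID3 and SMAD7). ID4 and SMAD6 were not analysed here. The table is a selection of genes by this same contrast, so the 4 genes were selected on the readout, and their values are given as a description with no test.

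RNA-seq was performed on AGS, an established cell line from a human gastric adenocarcinoma with the genotype label WT, after 24 h with vehicle (3 libraries) or SSD (3 libraries). SSD is Saikosaponin-D, a plant saponin, and all 6 libraries come from 1 cell line. The study used the comparison to find genes and processes that respond to SSD. The treatment label gives a dose of 10 μM for a compound it calls L14-8, the study's methods give a lower dose of SSD, and the growth label names the prostate line C4-2B, so neither the dose nor the compound's label is settled. The treated columns of the table carry a code in place of the name SSD. Its digits also occur in the compound name and dose of the treatment label, which does not settle the dose. These columns were taken as the SSD libraries because the only other columns are the controls. The table held 2 of 22 gastric and gut epithelial markers (TFF1 and SOX9), 1 of 11 prostate markers (SLC45A3) and 2 of 9 fibroblast markers (COL1A1 and VIM). A table chosen for change does not show which markers were expressed, so the labelled line could not be checked from it. The labels do not say whether the replicates were separate cultures, and the p-values given for other genes then measure only the spread between these libraries.

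ID proteins carry a helix-loop-helix domain but no basic DNA-binding region. They pair with bHLH factors, mainly the E proteins, and keep them off DNA, and they are known for holding cells in a proliferating, less differentiated state. The ID genes are among the best known direct targets of BMP signalling: ligands bind receptor kinases, these phosphorylate SMAD1, SMAD5 and SMAD9, and the SMADs enter the nucleus with SMAD4 and activate ID transcription. The same signal induces SMAD6 and SMAD7, whose proteins dampen the receptors, which makes these genes feedback inhibitors. ID genes also respond to serum, growth factors and Myc in several cell types.

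In GENCODE 29 (GRCh38), ID1 (ENSG00000125968) lies on the plus strand at chr20:31605283-31606515, and ID2 (ENSG00000115738) on the plus strand at chr2:8678845-8684453. ID3 (ENSG00000117318) lies on the minus strand at chr1:23557918-23559794, and SMAD7 (ENSG00000101665) on the minus strand at chr18:48919853-48952052. No pseudogene named after any of the 4 genes is annotated, and only ID2 shares exon sequence with another gene, the antisense gene ID2-AS1, which is not in the table. Whether reads were counted by strand is not given in the sources used here, so reads of ID2 and ID2-AS1 cannot be told apart. The coding gene nearest to ID3 on one side was E2F2, 26697 bp away and not in the table. On the other side it was RPL11, a ribosomal protein gene 131947 bp away and in the table.

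The sequence just upstream of each ID gene is shown because the 3 genes are 1 family with unequal fold changes, and the letters let their core promoters be compared. The RefSeq promoter table (GRCh38.p14) held 1 window each for ID1, ID2 and ID3 and 3 for SMAD7. For each ID gene, bases 45 to 16 before the RefSeq start are given first and bases 95 to 66 second, 5′ to 3′ on the gene's strand. Capitals mark the letters TATAA of the TATA box, the letters CCAAT of the box of that name, and the letters GGGCGG of the GC box, read on either strand, and touching matches run together.
ID1, chr20:31605244-31605273, plus strand: ggccgtggcgtgtTTATAAaagacaagctg
ID2, chr2:8682011-8682040, plus strand: ccccggcgagtgcggataaaagCCGCCCcg
ID3, chr1:23559517-23559546, minus strand: ccttccaggcaggctcTATAAgtgaccgcc
ID1, chr20:31605194-31605223, plus strand: ccatgCCGCCCATTGGctgcttttgaacgt
ID2, chr2:8681961-8681990, plus strand: agacgtgccaccttccgCCAATggggacga
ID3, chr1:23559567-23559596, minus strand: gggccggcgggggcagggccgaggcgggcc

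Over the full 250 bases upstream, TATAA was found in ID1 (2 overlapping matches on opposite strands, 32 and 31 bases before the start) and in ID3 (1 match, 29 bases before the start) but not in ID2, against 18.9% of 35116 human promoter windows of that length. CCAAT was found once in ID1, 3 times in ID2 and not in ID3, against 32% of windows. GGGCGG was found 2 times in each of ID1 and ID2 and not in ID3, against 42.6%. The SMAD box GTCT was found in all 3 genes (3, 2 and 2 matches in ID1, ID2 and ID3), and it occurs in 77.5% of windows. The palindromes CACGTG (bound by Myc and Max, in 6.34% of windows) and GGCGCC (a BMP-responsive GC element, in 16.4%) were found in none of the 3. In the 3 SMAD7 windows, GTCT occurred 4, 5 and 1 times and TATAA once, in the second window, with none of the other 4 motifs. GENCODE places longer transcripts over the ID2 and ID3 windows (202 and 250 of the 250 bases are annotated exon). All 250 bases of the first SMAD7 window are annotated exon too. These letters are a description of the windows and were not tested for binding. Sequence further upstream was not searched, so a motif missing here may still lie there.

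ID3 had the lowest ratio of SSD to vehicle of the 4 genes. In TPM, a share of the library's transcripts corrected for gene length, the 3 vehicle libraries held 81.5, 74.3 and 76 and the 3 SSD libraries 33.8, 31 and 25.7. The groups were far apart, and the highest SSD library held less than any vehicle library. The mean was 77.2 ± 3.76 (SD, n = 3) under vehicle and 30.2 ± 4.1 (SD, n = 3) under SSD, which is 39% of the vehicle level or 2.56-fold lower. The estimated counts behind these values were 660, 818 and 692 under vehicle and 261, 243 and 190 under SSD. The log2 fold change of SSD over vehicle was −1.38 (SE 0.0967), from a fit of edgeR to all 1099 genes with each library scaled to its whole content rather than to the table.

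ID1 was the most abundant of the 3 ID transcripts analysed in every library. With vehicle it stood at 299, 260 and 320 TPM, and with SSD at 210, 209 and 169 TPM. SSD replicates 1 and 2 were alike, replicate 3 was lowest, and the groups did not overlap. The mean went from 293 ± 30.3 to 196 ± 23.7 TPM (SD, n = 3), or 66.9% of vehicle, with a log2 fold change of −0.59 (SE 0.0883). ID1 counts were 2590, 3053 and 3118 under vehicle and 1746, 1763 and 1340 under SSD.

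ID2 differed less between the groups. Its TPM was 51.3, 45.9 and 54.8 under vehicle and 42.4, 32.7 and 37.5 under SSD. The lowest vehicle library and the highest SSD library were close, at 45.9 and 42.4 TPM, without overlap. The mean was 50.7 ± 4.49 TPM with vehicle against 37.5 ± 4.87 TPM with SSD (SD, n = 3), 74.1% of vehicle, and the log2 fold change was −0.36 (SE 0.0867). ID2 counts were 523, 655 and 607 under vehicle and 408, 360 and 382 under SSD.

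SMAD7, whose protein blocks type I receptors of both the BMP and the TGF-β branch and recruits ubiquitin ligases to them, had the smallest difference. The vehicle libraries held 21.1, 20 and 22.7 TPM of it, the SSD libraries 17.3, 16.3 and 18.6 TPM. The groups lay next to each other without overlap in TPM. The mean was 21.3 ± 1.34 TPM with vehicle against 17.4 ± 1.15 TPM with SSD (SD, n = 3), 81.5% of vehicle. The log2 fold change was −0.22 (SE 0.0893), and SMAD7 counts were 515, 689 and 609 under vehicle and 406, 420 and 461 under SSD. On the scaled count scale of the fit, SSD replicate 3 was 0.04 below the vehicle mean in log2 units and vehicle replicates 1 and 2 were both 0.03 below it, so that library was nearly level with the vehicle libraries. Without SSD replicate 3 the log2 fold change of SMAD7 was −0.32. In bulk libraries such as these, a lower level in all cells and fewer cells that express a gene cannot be told apart.

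**Figure D1:**
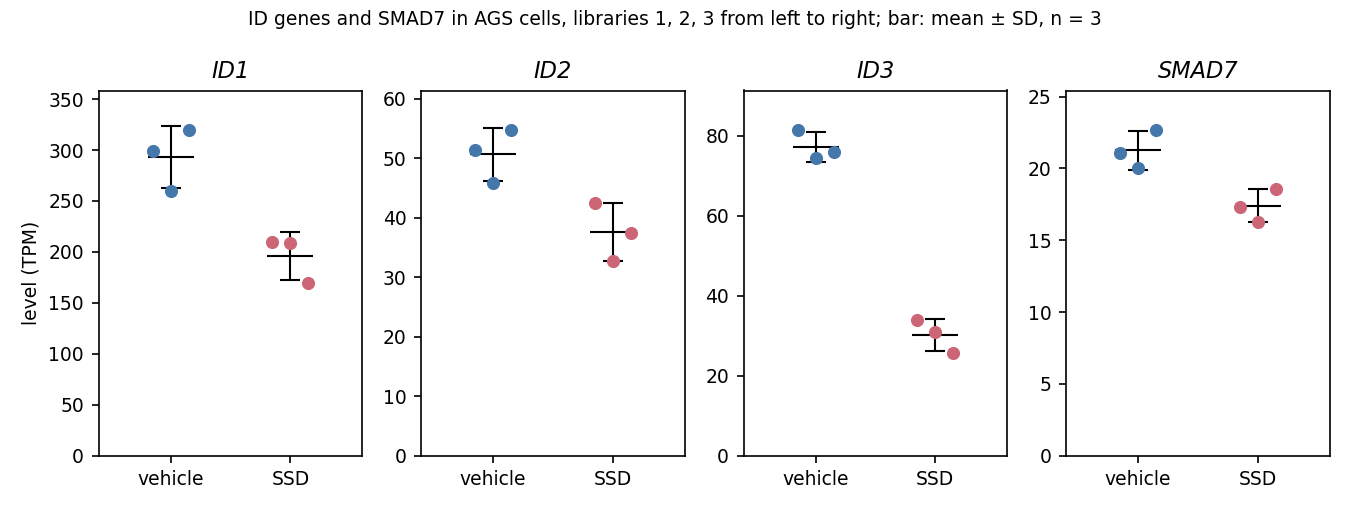
Level in TPM of ID1, ID2, ID3 and SMAD7 in each vehicle (blue) and SSD (red) library, with replicates 1 to 3 from left to right and the mean ± SD (n = 3) in black. Each panel has its own axis from 0, and no SSD point reaches the lowest vehicle point; for ID3 the SSD points lie between 25.7 and 33.8 TPM and the vehicle points between 74.3 and 81.5 TPM.

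The lowering was uneven across the ID family. The log2 fold change of ID3 was 0.79 below that of ID1 and 1.02 below that of ID2, and in both cases the log ratio of the 2 genes in the SSD libraries lay outside its range in the vehicle libraries. For ID1 against ID2 the fold changes differed by 0.23, and the log ratios of the groups overlapped. Against SMAD7, the difference was 1.17 for ID3 and 0.37 for ID1, both without overlap, and 0.14 for ID2, with overlap. These differences describe genes selected on the same contrast and carry no test. The share of other gene pairs whose log ratios separate in this way was not computed. Separation of single genes in TPM was common in the table, with 44.2% lower and 32.2% higher without overlap.

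Summed over ID1, ID2 and ID3, the vehicle libraries held 432, 380 and 450 TPM and the SSD libraries 286, 273 and 232 TPM. The mean of the sum went from 421 ± 36.4 to 264 ± 28.3 TPM (SD, n = 3), 62.7% of vehicle, with no overlap. Of the mean loss of 157 TPM, ID1 made up 96.9 TPM (61.7%), ID3 made up 47.1 TPM (30%) and ID2 made up 13.1 TPM (8.36%). ID1 thus accounted for most of the lost transcripts, although ID3 had the lower ratio.

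The make-up of the family shifted away from ID3. Its share of the summed ID transcripts was 18.9, 19.5 and 16.9% in the vehicle libraries and 11.8, 11.3 and 11.1% in the SSD libraries, a mean of 18.4 ± 1.39% against 11.4 ± 0.363% (SD, n = 3). The ID1 share was 69.5 ± 1.31% under vehicle and 74.3 ± 2.11% under SSD, and the ID2 share was 12 ± 0.144% and 14.3 ± 2.14%. Vehicle cells held more ID3 than ID2 transcripts in every library, with ratios of 1.59, 1.62 and 1.39. Under SSD the order was the opposite in every library, with ratios of 0.795, 0.948 and 0.686, although SSD replicate 2 was close to parity.

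**Figure D2:**
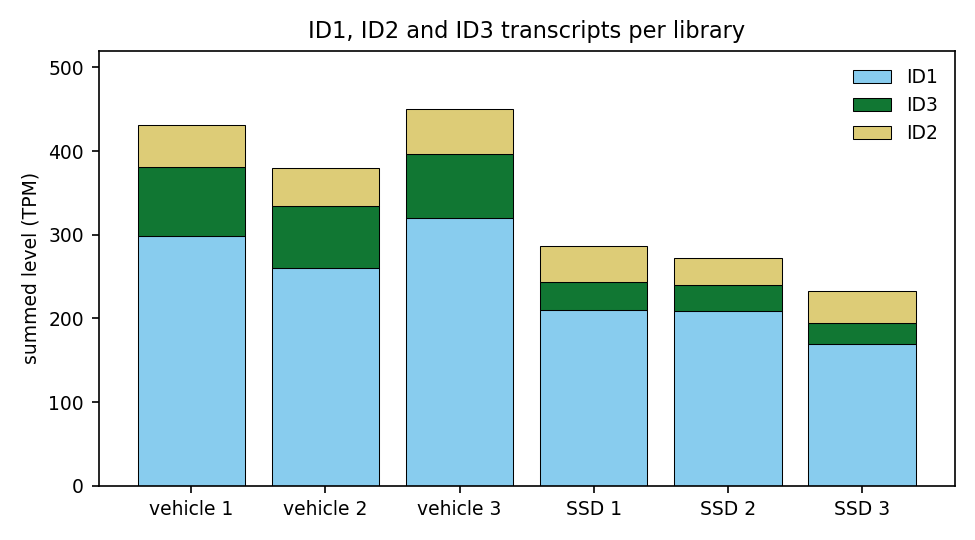
Stacked levels of ID1, ID3 and ID2 in TPM (vertical axis) for each of the 6 libraries (horizontal axis). The stacks reach 380 to 450 TPM under vehicle and 232 to 286 TPM under SSD, and the ID3 band (dark green) shrinks from 16.9 to 19.5% of the stack to 11.1 to 11.8%.

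Set against the whole table, the 4 genes held places from 3 to 334 among the 712 genes with a log2 fold change below 0. Over all 1099 genes the log2 fold change ran from −1.49 to 0.90 with a median of −0.14, and 712 genes (64.8%) were below 0. From the lowest value upward, ID3 was number 3, ID1 number 49, ID2 number 111 and SMAD7 number 334. Among the 1086 genes that averaged 100 counts or more, SERPINB2 (an inhibitor of plasminogen activators) came just below ID3 with a log2 fold change of −1.41 (SE 0.197). KRT13 (a keratin of stratified epithelia) came just above with −1.31 (SE 0.103), and CYP1A1 (a cytochrome P450 induced through the aryl hydrocarbon receptor) followed with −1.25 (SE 0.125). These 4 genes differed by less than the SE of SERPINB2, so their order is not resolved. Lower values without overlap in TPM, which all 4 genes had, were also seen in 486 genes (44.2%) of the table.

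**Figure D3:**
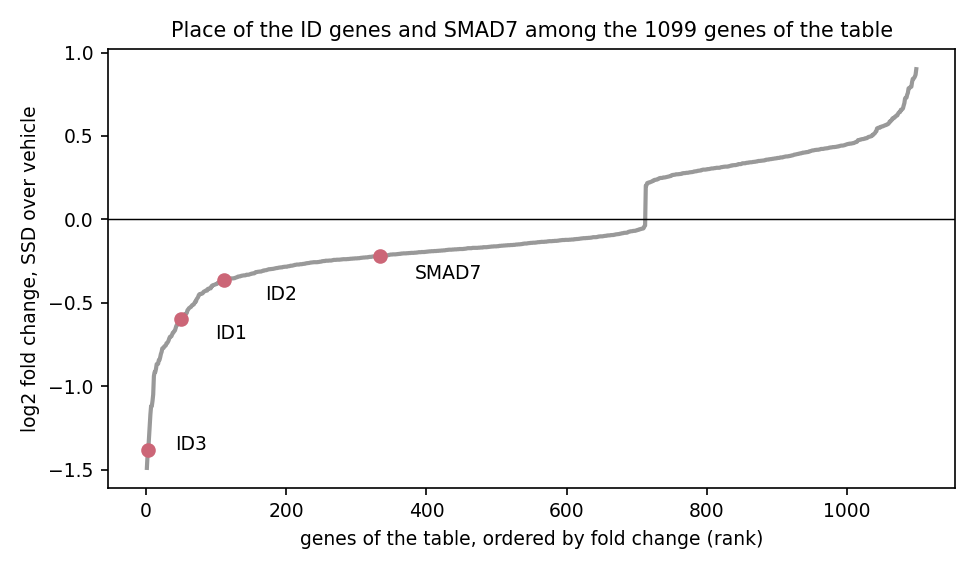
All 1099 genes of the table ordered by log2 fold change of SSD over vehicle (grey line, vertical axis) against their rank, with ID3, ID1, ID2 and SMAD7 as red points at ranks 3, 49, 111 and 334. The line steps from −0.04 to 0.20 with no gene in the gap. The table holds only genes selected for change, but on this scale the gap is centred on 0.08 and not on 0. The cause of that offset was not tested.

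Genes whose pattern over the 6 libraries was most like that of ID3 were ranked in 2 ways among 1085 other genes that averaged 100 counts or more. By Pearson correlation of log2(TPM + 1), the 5 closest were ATAD3A (a mitochondrial membrane ATPase, r = 0.9969), HK2 (hexokinase 2, the first enzyme of glycolysis, r = 0.9967), SNHG15 (a noncoding snoRNA host gene, r = 0.9961), ZNF593 (a zinc finger protein, r = 0.9878) and MFSD2A (a lysophosphatidylcholine transporter, r = 0.9866). Their log2 fold changes were −0.20, −0.26, −0.51, −0.48 and −0.70, all smaller in size than that of ID3. A correlation over 6 libraries of 2 groups mostly reflects the group difference, and 142 of the 1085 genes (13.1%) had r above 0.9. ID1 had r = 0.95 with ID3 (place 56), ID2 had r = 0.87 (place 202) and SMAD7 had r = 0.84 (place 263).

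By the root mean square distance of log2(TPM + 1) from the vehicle mean, which also takes account of the size of the difference, the closest to ID3 were KRT13 (distance 0.167), KRT81 (a hair keratin, 0.269), SERPINB2 (0.321), S100A2 (a calcium-binding protein of epithelia, 0.395) and GCNT3 (a mucin-type glycosyltransferase, 0.419). KRT13 went from 26.4 ± 2.78 to 10.7 ± 0.422 TPM, KRT81 from 24.1 ± 0.542 to 10.8 ± 1.5 TPM, and S100A2 from 65.5 ± 4.47 to 35.9 ± 4.97 TPM (SD, n = 3). ID1, ID2 and SMAD7 were at distances of 0.542, 0.659 and 0.764 (places 25, 55 and 186).

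The rest of the BMP and TGF-β pathway was followed with 6 lists (ligands, receptors, SMADs, inhibitors, stores in the matrix, and targets) that together name 98 genes. Of these, 8 were in the table, 0 were lower and 2 were higher under SSD by edgeR's quasi-likelihood test (Benjamini-Hochberg adjusted p under 0.05, over the 11289 genes the authors tested), and their median log2 fold change was −0.20. Of all 1099 genes, 18.4% were called lower and 32.3% higher, and the median was −0.14. The split depends on the scale between libraries: 202 genes were lower and 355 higher on the whole-library scale, against 87 and 385 with TMM, 86 and 387 with DESeq2's size factors, and 544 and 243 when the gap between lowered and raised genes was centred on 0. The 8 genes are in the table because they differed in this contrast, so their calls are not independent evidence. At an unadjusted p under 0.05, 5 of the 8 were lower by edgeR, beside 54.5% of all genes. DESeq2's Wald test was run with size factors taken from the selected genes. With such size factors in edgeR, log2 fold changes were higher by a median of 0.0964. The Wald test and limma on log2(TPM + 1) also called 0 of the 8 lower after adjustment, with 2 and 5 lower at an unadjusted p under 0.05. They called 3 and 0 of the 8 higher after adjustment, against 2 by edgeR. With edgeR on the scale centred on the gap, INHBE, FSTL3, TGIF2, MSX2 and CCN1 were called lower (adjusted p = 0.0256, 0.0132, 0.0284, 0.0129 and 0.0184). There SKI lost its higher call (adjusted p = 0.096) and LTBP3 kept it (0.0222). Adjusted over the table alone, the same 5 genes were also called lower. The count of 0 lower therefore depends on the scale and on the adjustment.

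Of 26 ligand genes only INHBE, the βE subunit of activins, was in the table, at 84.6 ± 5.66 TPM with vehicle against 71.5 ± 5.21 TPM with SSD (SD, n = 3; log2 fold change −0.33, adjusted p = 0.0858 by edgeR, and 0.0127 without SSD replicate 3). None of 16 receptor symbols, which cover the type I and type II receptors and their co-receptors, and none of the 6 receptor-regulated and common SMAD genes was in the table. They were not analysed here, and nothing follows about their level.

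Among 23 inhibitors of the pathway 4 were in the table, with a median log2 fold change of 0.03. SKI, a nuclear co-repressor that binds SMAD complexes, rose from 25.5 ± 1.6 to 30.5 ± 2.33 TPM (SD, n = 3; log2 fold change 0.26, adjusted p = 0.0197 by edgeR). The call for SKI was lost without vehicle replicate 1, 2 or 3 or SSD replicate 2 (adjusted p = 0.0778, 0.135, 0.0525 and 0.121). Its close relative SKIL had a log2 fold change of 0.30 with an adjusted p of 0.108, which was 0.0253 without SSD replicate 1. FSTL3, a secreted trap for activins, and TGIF2, a homeobox co-repressor, were below 0, at −0.22 (adjusted p = 0.0588, and 0.0342 without vehicle replicate 1) and −0.19 (adjusted p = 0.175). Both co-repressors of the SKI family therefore had positive and both of the others negative fold changes, on every scale tried. LTBP3, which holds latent TGF-β in the matrix, was the only one of 7 matrix genes in the table. It rose from 34 ± 2.02 to 39.5 ± 2.23 TPM (SD, n = 3; log2 fold change 0.35, adjusted p = 0.00801 by edgeR). Limma on log2(TPM + 1) gave a smaller log2 fold change of 0.21 and no call (adjusted p = 0.312).

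Of 20 other symbols of targets of the pathway, 2 were in the table. CCN1, a matrix-associated signalling protein, went from 38.3 ± 1.9 to 30.2 ± 4.35 TPM (log2 fold change −0.35, adjusted p = 0.0537 by edgeR; SD, n = 3). MSX2, a homeobox gene that responds to BMP, was at 60.5 ± 1.48 and 51.7 ± 1.54 TPM (−0.21, adjusted p = 0.0606). In the authors' own test every gene of the table had a p of at most 0.00535. By the edgeR test used here neither gene passed. Neither overlapped between the groups, but lower values without overlap were seen in 486 genes (44.2%) of the table. Without SSD replicate 3 both passed, with adjusted p values of 0.0203 for CCN1 and 0.029 for MSX2. By the table's own annotation, the KEGG TGF-β signalling pathway held 8 of its genes, namely ID1, ID2, ID3, SMAD7, INHBE, MYC, RBX1 and TGIF2. This set was chosen after the values were seen, and all 8 were below 0 with a median of −0.31, beside 64.8% of all genes below 0. With the 4 selected genes set aside, the other 4 ran from −0.33 to −0.19.

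**Figure D4:**
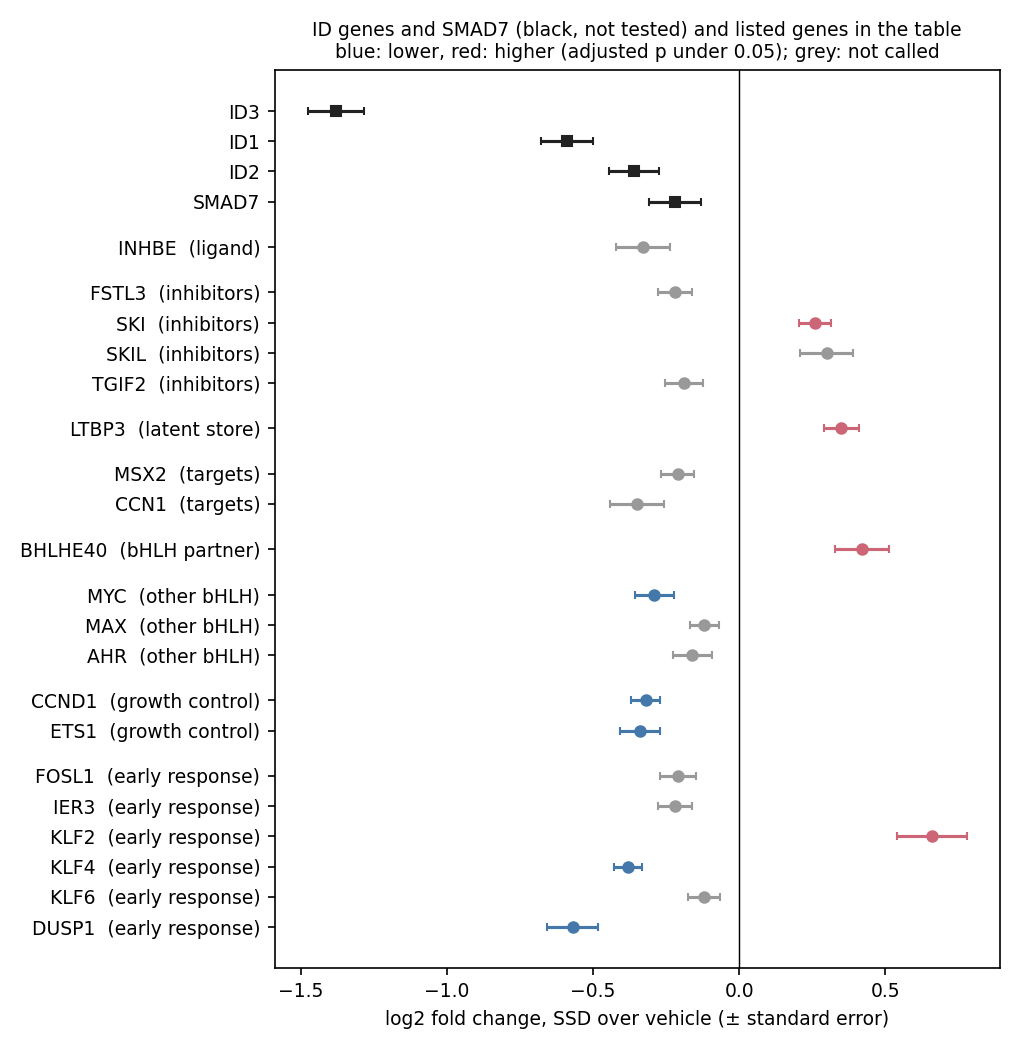
Log2 fold change of SSD over vehicle (horizontal axis, ± SE) of ID3, ID1, ID2 and SMAD7 (black squares, not tested) and of the 20 listed genes in the table (circles), grouped by role. Blue marks the 5 genes called lower, red the 4 called higher and grey those not called; ID3 at −1.38 lies below every listed gene.

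Among the bHLH genes on which ID proteins act, or which act beside them, 1 was called higher and 1 lower. Over all genes, 32.3% were called higher and 18.4% lower. Both of the bHLH calls were lost in several other settings. Of 20 bHLH genes of the classes that pair with ID proteins or E proteins, or that repress through E boxes and N boxes, only BHLHE40, a repressor linked to the circadian clock and hypoxia, was in the table. It rose from 31.7 ± 3.36 to 42.2 ± 4.96 TPM (SD, n = 3; log2 fold change 0.42, adjusted p = 0.0212 by edgeR), and the call was lost without vehicle replicate 2 or 3 or SSD replicate 2 (adjusted p = 0.108, 0.116 and 0.102). Of 27 bHLH genes with a leucine zipper or PAS domain, 3 were in the table. MYC fell from 218 ± 12.9 to 181 ± 19.9 TPM (log2 fold change −0.29, adjusted p = 0.0328), while its partner MAX (−0.12, adjusted p = 0.445) and the aryl hydrocarbon receptor AHR (−0.16, adjusted p = 0.47) did not pass (AHR did without SSD replicate 3, adjusted p = 0.0298). The call for MYC was lost in 11 of 15 other settings, with adjusted p values up to 0.466, and its direction was kept in all 15. Among these were the fits without vehicle replicate 1, 2 or 3 (adjusted p = 0.0514, 0.157 and 0.151) and without SSD replicate 2 or 3 (0.136 and 0.0557).

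Growth control genes downstream of ID proteins were covered by 17 names, of which 2 were in the table. Both were called lower, beside 18.4% of all genes. CCND1, encoding cyclin D1, was at 413, 418 and 450 TPM with vehicle and at 351, 336 and 333 TPM with SSD. The groups were well separated, and CCND1 fell from 427 ± 20.4 to 340 ± 9.73 TPM (SD, n = 3; log2 fold change −0.32, adjusted p = 0.00595 by edgeR). ETS1, an ETS factor whose activity ID proteins restrain, fell from 18.1 ± 1.31 to 14.1 ± 0.211 TPM (log2 fold change −0.34, adjusted p = 0.0146), a call that was lost in 8 of 15 other settings, among them those without vehicle replicate 2 or SSD replicate 2 (adjusted p = 0.0525 and 0.0676). The cell cycle inhibitors CDKN1A, CDKN1B, CDKN2A and CDKN2B are on the same list and were not in the table. None of the 4 genes listed for ID protein turnover (the deubiquitinase USP1 and its cofactor WDR48, FZR1 and COPS5) was in it either.

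ID genes are also early responders to serum, so 20 early-response genes were followed beside them. Of these 6 were in the table, 2 were lower and 1 was higher (18.4% and 32.3% over all genes), with a median log2 fold change of −0.21 (−0.14 over all genes). DUSP1, a phosphatase that inactivates MAP kinases, fell from 22.5 ± 1.61 to 15.3 ± 0.784 TPM (SD, n = 3; log2 fold change −0.57, adjusted p = 0.0056 by edgeR), close in size to ID1. KLF4, a Krüppel-like factor of differentiating epithelia, fell from 95.6 ± 1.69 to 73.3 ± 1.77 TPM (log2 fold change −0.38, adjusted p = 0.00266). KLF2 went the other way, with 6.65, 10.9 and 11.3 TPM in the vehicle and 16.9, 15 and 17 TPM in the SSD libraries (log2 fold change 0.66, adjusted p = 0.0104, and 0.0518 and 0.0573 without vehicle or SSD replicate 2). FOSL1, IER3 and KLF6 lay between −0.22 and −0.12 and did not pass (IER3 did without SSD replicate 3, adjusted p = 0.011).

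Over all 11 lists, 20 of 181 names were in the table, of which 5 were lower, 4 were higher and 15 were below 0, with a median of −0.21. Of all genes of the table, 18.4% were lower, 32.3% were higher and 64.8% were below 0, with a median of −0.14, and nothing particular to the listed genes is read from these counts. All 4 of ID1, ID2, ID3 and SMAD7 were below 0. The calls for CCND1, DUSP1 and KLF4 held in all 15 other settings, and no listed gene changed direction in any of them.

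Of the 5 marker genes in the table, 1 was called lower and 1 higher (18.4% and 32.3% over all genes). TFF1, a trefoil peptide of gastric mucus, fell from 74.3 ± 6.28 to 46.5 ± 11.4 TPM (SD, n = 3; log2 fold change −0.76, adjusted p = 0.0146 by edgeR). The other gastric marker in the table, SOX9, had a log2 fold change of −0.05 (adjusted p = 1) with overlap between the groups, and the prostate marker SLC45A3 had −0.33 (adjusted p = 0.164). VIM, an intermediate filament of mesenchymal cells, rose from 5.73 ± 1.62 to 10.5 ± 1.46 TPM (log2 fold change 0.75, adjusted p = 0.0088), while COL1A1 had a log2 fold change of −0.25 (adjusted p = 0.131). Summed over the 2 gastric markers in the table, the level was 350 to 360 TPM with vehicle and 305 to 328 TPM with SSD. Over the 2 fibroblast markers it was 18.2 to 21.5 TPM with vehicle and 21.5 to 24.9 TPM with SSD. The part of these markers in the ID values was not tested.

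The fold changes of the 4 genes were recomputed under 14 other settings. ID3 ran from −1.46 to −1.28, ID1 from −0.68 to −0.49, ID2 from −0.45 to −0.27 and SMAD7 from −0.32 to −0.12. The order ID3, ID1, ID2, SMAD7 from lowest to highest was the same in every setting, and none of the 4 reached 0. SMAD7, which lay nearest to 0, was at −0.14 with TMM and −0.12 with DESeq2's size factors, and at −0.30 with the scale centred on the gap. TPM and scaled counts gave somewhat unlike sizes. By limma on log2(TPM + 1), ID2 was at −0.43 and SMAD7 at −0.28, against −0.36 and −0.22 as reported. ID1 and ID3 were at −0.58 and −1.34, against −0.59 and −1.38. The cause was not tested.

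**Figure D5:**
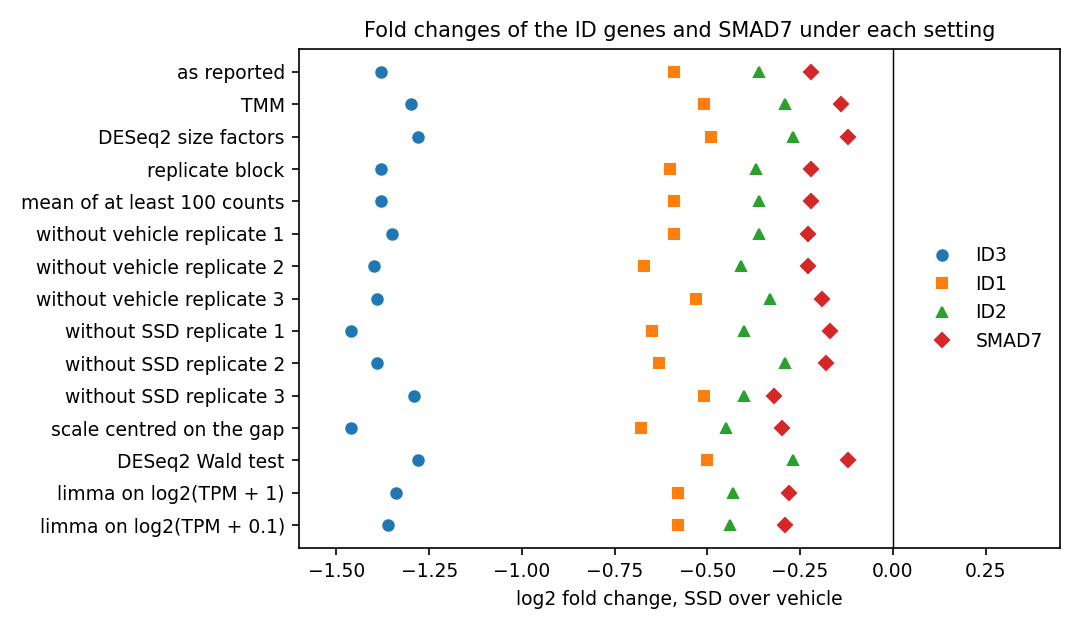
Log2 fold change of SSD over vehicle (horizontal axis) of ID3, ID1, ID2 and SMAD7 under the reported fit and 14 other settings (vertical axis), each point 1 fit. Within every row ID3 is lowest and SMAD7 highest, and ID3 stays between −1.46 and −1.28.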

How the data were processed

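RNA-seq of 6 libraries of AGS cells (3 vehicle, 3 SSD) was analysed from the deposited table. The estimated counts were, as deposited, the authors' expected reads per gene, 33.5% of them not whole. Rounded counts entered the tests. The authors' TPM were computed against the whole library, since those in the table add up to only 30.1 to 33.1% of it. The p-values and adjusted p-values of the authors were read only to count the genes tested and to see how the table was selected. The count was 11289 (adjusted p times rank over p, within 0.5 of this for 74.2% of genes with p over 0.0001). The largest p in the table is 0.00535, so it is a selection on the outcome. The authors' adjusted p was under 0.05 for 1055 of the 1099 genes. Fewer were called here (202 lower and 355 higher), so a gene not called here may have passed in the authors' test. The authors' fold changes were not used. Reads were analysed by the authors on a commercial platform against GRCh38.p13 (submitters' processing notes), and the aligner and counter are not given in the sources used here. Control columns were mapped by name to vehicle, the remaining coded columns to SSD, and the trailing number to the replicate.

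The test was edgeR 4.0.16's quasi-likelihood test (R 4.3.3), two-sided, without covariates or a filter on low counts (the smallest mean was 59). Each library was scaled by the median over genes of count over TPM, which reflects its whole content, since the table is selected for change. Benjamini-Hochberg adjustment was over 11289 genes, those not in the table being given p above those in it, and a call needs an adjusted p under 0.05. Counts over the table ran from 3084337 to 4640114 per library and are not library depth, which is unknown here. Chi-square per degree of freedom between replicates of a group was 4.59 to 15.3, so replicates differed by more than counting error. The test was checked on simulated counts made with the same library scale, so that check does not bear on the choice of scale.

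The genes and lists were chosen with earlier results of these data known. Named are the selected genes, the list members in the table, the 5 genes most like ID3 by correlation and by distance, its neighbours in the order of fold changes and its neighbours in the genome. Alternatives were TMM, DESeq2 1.42.0 size factors and Wald test, limma 3.58.1 on log2 TPM with a pseudocount of 1 or 0.1, a minimum mean of 100 counts, the replicate number as a block, adjustment over the table alone, and each library left out. The scale centred on the gap between lowered and raised genes and the annotation set were chosen after seeing the data.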

Additional observations from a re-analysis of the deposited data

How the results depend on the processing

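The fold changes of ID1, ID2, ID3 and SMAD7 moved by less than the spread between replicates under every setting tried. Leaving out each library gave −0.67 to −0.51 for ID1, −0.41 to −0.29 for ID2, −1.46 to −1.29 for ID3 and −0.32 to −0.17 for SMAD7. Counts of calls were less stable. Of all genes, 202 were lower, against 87 with TMM, 86 with DESeq2's size factors, 113 with DESeq2's Wald test, 75 and 73 with limma (log2 TPM, pseudocount 1 and 0.1), 583 when adjusted over the table alone, 544 with the scale centred on the gap, and 60 to 313 with a library left out (60 and 72 when vehicle replicate 2 or 3 was left out, 73 and 313 when SSD replicate 2 or 3 was). Of all genes, 355 were higher, against 114 and 115 with limma, and 110 to 379 with a library left out (110 and 134 when vehicle replicate 2 or 3 was left out, 172 when SSD replicate 2 was). Of the listed genes, 5 were lower, against 3 with TMM, 3 with size factors, 3 with the Wald test, 3 and 3 with limma, 14 over the table alone, 14 with the centred scale, and 3 to 9 with a library left out (3 without vehicle replicate 2 or SSD replicate 2, 9 without SSD replicate 3). Of the listed genes, 4 were higher, against 0 and 0 with limma, and 1 to 5 with a library left out (1 without vehicle replicate 2 or SSD replicate 2, 2 without vehicle replicate 3). In 300 single-gene comparisons for the listed genes, 232 calls were the same, 39 were lost, 29 were gained and 0 changed direction.

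On scaled counts, 1 of the 5 genes most like ID3 by correlation was again among the first 5, and 3 of 5 by distance. The cause of these changes was not tested, except that adjusting over fewer genes gives smaller adjusted p.

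Pairing of the libraries by replicate number was not seen: same-numbered deviations from the group means correlated at −0.23, −0.01 and −0.03. Differently numbered ones ran from −0.21 to 0.24. With 3 libraries per group and genes selected on this contrast, these values cannot settle whether the libraries are paired. With the replicate block, 84 genes were lower and 136 higher, and of the listed genes 3 and 2. Depth is unknown, and 0.1 is the smallest two-sided p an exact permutation of 3 and 3 libraries allows. ID4, SMAD6 and most of the pathway were not analysed here, so the lists describe selected genes only.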
